A study of Homo sapiens with 8 samples.

Results

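The chemokine and cytokine genes that NF-kB is known to switch on were followed on 8 expression arrays, as a group of 10 genes. They were CXCL1, CXCL2, CXCL3, IL8, IL6, IL1B, LIF, CCL2, NFKBIA and TNFAIP3, all 10 of which were on the array, with 15 of its 50599 probes. The probes were taken by gene name. The group itself was chosen by the signal of CXCL2, which had been seen to fall with pre-miR-375 and to rise with antagomiR-375 in these same arrays, so the changes of the 10 genes in those 2 comparisons are given as a description, without a test. Nthy-ori 3-1 is an immortalized line of non-tumoral thyroid follicular cells, and TT is a line from a medullary thyroid carcinoma, the tumor of the calcitonin-producing C cells. Nthy-ori 3-1 cells received pre-miR-375, a synthetic precursor of the miRNA, or a control (CTL), and TT cells received antagomiR-375, an inhibitor of the miRNA, or a control, with 2 arrays in each of the 4 groups. The labels give a transfection of 48 h in every group, at 5 nM for the precursors and 20 nM for the antagomiRs, whereas the methods name higher concentrations, and they do not name the control reagents. Every group was transfected, and each line is 1 cell line, so no untransfected cells and no second line of either kind stand beside them. The methods speak of biological replicates, 2 or 3 in each condition, without saying how they were kept apart, and the labels of the 2 arrays of a group add nothing to this.

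NF-kB is a family of transcription factors that is held in the cytoplasm by IkB proteins and released when receptors for TNF, IL-1 or microbial products activate the IKK kinases. The freed dimers switch on genes of inflammation, among them the neutrophil-attracting CXC chemokines (CXCL1, CXCL2, CXCL3 and IL8), the monocyte-attracting chemokine CCL2 and the cytokines IL6, IL1B and LIF. They also switch on their own brakes, NFKBIA (the inhibitor IkBalpha) and TNFAIP3 (the ubiquitin-editing enzyme A20). MiR-375 is an endocrine miRNA, known from pancreatic islets and abundant in medullary thyroid carcinoma.

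The miRNA that was added or inhibited is shown first, with its seed (bases 2 to 8) in capitals. The promoters of the 4 CXC chemokine genes follow, since these genes lie close together on chromosome 4 and did not all move alike. Each line holds the 100 bases before the transcription start, 5′ to 3′ on the strand of the gene, from RefSeq on GRCh38.p14, with the capitals marking GGAATTTCC, the core of an NF-kB site.
hsa-miR-375-3p: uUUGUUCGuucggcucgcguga
CXCL2: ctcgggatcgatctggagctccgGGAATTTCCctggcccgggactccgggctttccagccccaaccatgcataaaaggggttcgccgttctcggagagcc
CXCL1: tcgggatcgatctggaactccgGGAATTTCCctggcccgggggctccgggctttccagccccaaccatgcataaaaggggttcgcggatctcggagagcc
CXCL3: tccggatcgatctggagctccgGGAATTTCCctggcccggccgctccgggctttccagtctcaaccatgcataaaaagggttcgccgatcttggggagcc
IL8: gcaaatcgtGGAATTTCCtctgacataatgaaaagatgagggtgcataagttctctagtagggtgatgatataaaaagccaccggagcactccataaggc

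The windows are chr4:74099196-74099295 for CXCL2 (minus strand), chr4:73869293-73869392 for CXCL1 (plus), chr4:74038690-74038789 for CXCL3 (minus) and chr4:73740469-73740568 for IL8, listed by RefSeq as CXCL8 (plus). The CXCL1 and CXCL2 windows shared 95 identical bases in a global alignment, and CXCL3 shared 90 with each of them. IL8 shared between 45 and 48 with the other genes. GGAATTTCC was searched on both strands, from 250 bases before to 50 after the start. RefSeq promoters were matched for 8 of the 10 genes (not LIF and CCL2), and 5 of them held the motif, NFKBIA on its minus strand, where 0.461% of all 35116 promoters did. A longer, degenerate NF-kB consensus was in 6 of the 8, overlapping GGAATTTCC in CXCL1, CXCL2, CXCL3 and NFKBIA and standing elsewhere in IL6 and TNFAIP3, with IL8 and IL1B the ones without it, and in 11.3% of all promoters. A match is a description of the letters and not a measured site.

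Between 26102 and 30915 probes per array were well above background by the scanner software, none of the spots was saturated, and the number of arrays limits the precision. Values are log2 signals after quantile normalization of the 8 arrays, and the treated array of each pair shared its slide and replicate number with its control. C cell markers bore out the TT label: all 7 on the array were well above background on every TT array (CALCA between 18.49 and 18.61, CHGA between 16.71 and 17.00), and 1 of 7 (RET) on both Nthy-ori 3-1 control arrays. Of the 7 follicular markers, 4 were well above background on both Nthy-ori 3-1 control arrays and 5 on both TT control arrays. In Nthy-ori 3-1 CTL PAX8 read 10.73 and 10.62 and thyroglobulin (TG) 4.72 and 5.02, and NKX2-1 and TSHR were not well above background on any Nthy-ori 3-1 array. In TT CTL PAX8 read 5.09 and 5.76, TG 9.13 on both arrays and NKX2-1 12.35 and 12.21. The follicular markers thus went in both directions between the lines and did not bear out the Nthy-ori 3-1 label as a list. The arrays held 0 probes for the miRNA gene itself. SEC23A, the target the study follows, read 11.04 and 11.35 in Nthy-ori 3-1 CTL and 9.53 and 10.08 with pre-miR-375, and 9.55 and 9.68 in TT CTL and 10.24 and 10.29 with antagomiR-375, lower with the precursor and higher with the inhibitor in every pair.

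**Figure D1:**
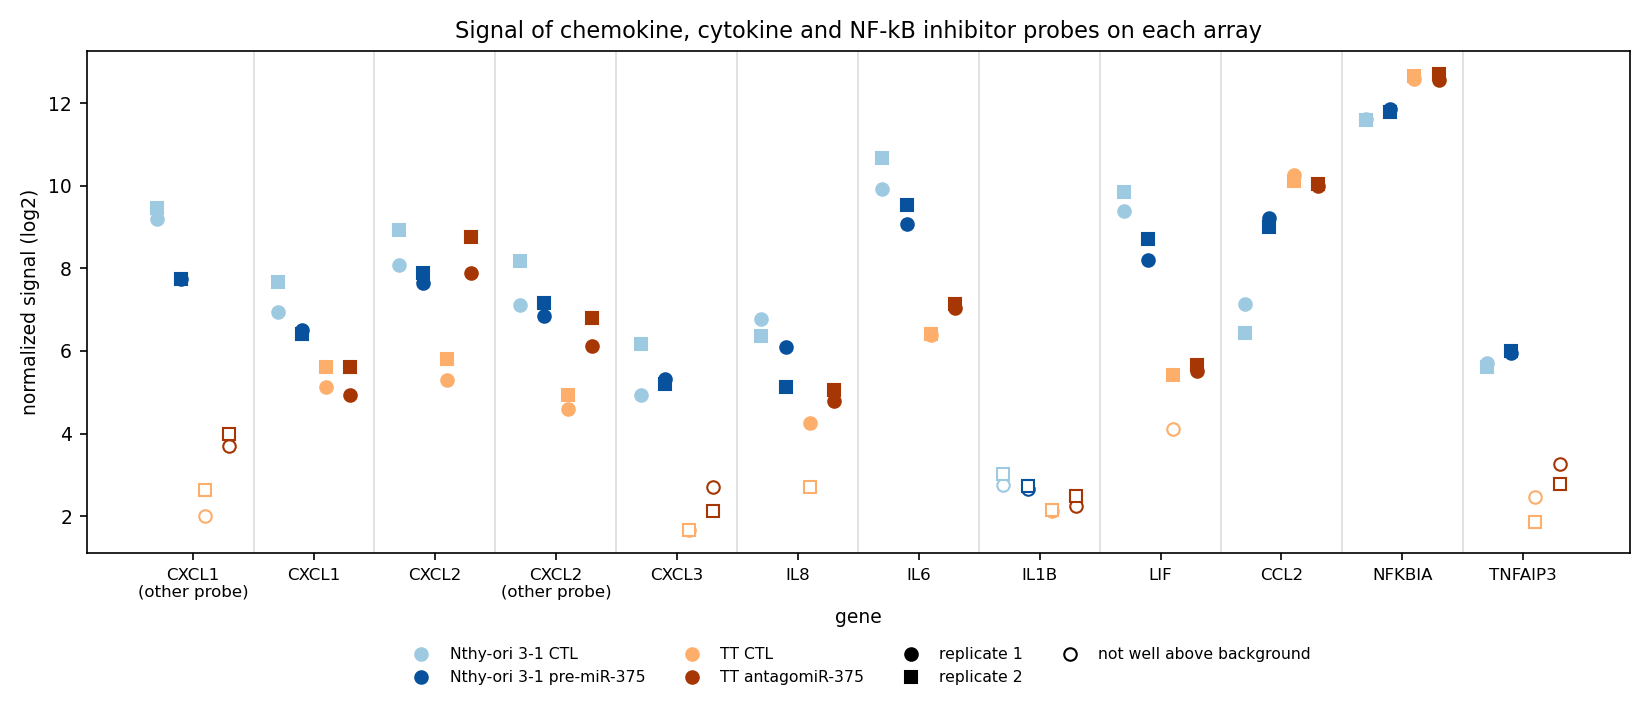
Normalized signal (log2) of the probes of the 10 genes on each of the 8 arrays, with colours for the 4 groups, circles for replicate 1, squares for replicate 2 and open symbols where the probe was not well above background. CXCL1 and CXCL2 are each shown with a further probe, and the other probes of IL8, IL6 and LIF are not shown. IL1B was open on all arrays, and CCL2 and NFKBIA were the genes with the higher signal in TT CTL.

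CXCL2 encodes a chemokine that draws neutrophils through the receptor CXCR2. In Nthy-ori 3-1 cells its probe (chr4:74962985-74963044, hg19) read 8.09 and 8.93 on the CTL arrays and 7.65 and 7.88 with pre-miR-375. All values with the precursor lay below those of the controls, but the pairs differed from each other in size, with differences of -0.45 and -1.05. In TT cells it read 5.30 and 5.82 on the CTL arrays and 7.88 and 8.76 with antagomiR-375. These groups were far apart, by 2.58 and 2.94 in the pairs and by 6.77-fold on average (log2 difference 2.76, SE 0.151). By this probe the CXCL2 signal in TT cells with the inhibitor lay within the range spanned by Nthy-ori 3-1 cells, from 7.65 to 8.93. The other CXCL2 probe (chr4:74964342-74964401) went the same way, by -0.26 and -1.03 in Nthy-ori 3-1 pairs and by 1.53 and 1.86 in TT pairs. With the inhibitor it read 6.13 and 6.80 in TT cells, below its range in Nthy-ori 3-1 cells, from 6.84 to 8.18. Since CXCL2 chose the group, these values support nothing by themselves.

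CXCL1, the closest relative of CXCL2 here, was read by 2 probes that disagreed. The probe with the higher average over all arrays (chr4:74735646-74735705) read 6.94 and 7.68 in Nthy-ori 3-1 CTL and 6.51 and 6.42 with pre-miR-375, differences of -0.44 and -1.26. In TT cells it read 5.12 and 5.62 with CTL and 4.94 and 5.62 with antagomiR-375, so that these groups overlapped. The other probe (chr4:74736850-74736909) was brighter in Nthy-ori 3-1 cells, at 9.20 and 9.46 with CTL and 7.73 and 7.74 with pre-miR-375, which was 3.03-fold lower on average and alike in both pairs (-1.47 and -1.73). It was not well above background on any TT array. The CXC probes share little sequence, with at most 32 of 60 bases identical without gaps for any pair of probes, that pair being CXCL1 (chr4:74735646-74735705) and CXCL2 (chr4:74964342-74964401), and no run of over 9 bases in common. CXCL2 and CXCL1, whose promoters are nearly the same in the sequences printed above, were thus both lower with the precursor. With the inhibitor the pair differences of the CXCL1 probe above background in TT cells were -0.18 and 0.0018. Those of the other CXCL1 probe were 1.70 and 1.35 but in the background, so the change of CXCL1 in TT cells is unresolved.

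CXCL3, a further neutrophil chemokine, was dim. It read 4.94 and 6.17 in Nthy-ori 3-1 CTL and 5.31 and 5.20 with pre-miR-375, so that the groups overlapped and the pairs pointed in opposite directions (0.38 and -0.97). It was not well above background on any of the 4 TT arrays. IL8, the main human neutrophil chemokine, read 6.78 and 6.37 in Nthy-ori 3-1 CTL and 6.10 and 5.13 with pre-miR-375. Both values with the precursor were lower, by 0.69 in one pair and 1.24 in the other. In TT cells IL8 read 4.25 and 2.70 with CTL and 4.79 and 5.07 with antagomiR-375, and 1 of the 2 control arrays was well above background. Both values with the inhibitor were higher, but the pairs differed widely (0.54 and 2.36), the larger one against the array where the probe was in the background. The other IL8 probe was not well above background on any array.

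IL6, the cytokine that drives the acute-phase response through gp130, read 9.93 and 10.66 in Nthy-ori 3-1 CTL and 9.06 and 9.53 with pre-miR-375. It was lower by 0.86 and 1.13 in the pairs, and by 1.995-fold on average (SE 0.136 on the log2 scale). In TT cells IL6 read 6.38 and 6.42 with CTL and 7.05 and 7.14 with antagomiR-375, which was higher by 0.68 and 0.73, or 1.63-fold (log2 difference 0.70, SE 0.109). The groups did not overlap in either line. LIF, an IL-6 family cytokine, read 9.38 and 9.85 in Nthy-ori 3-1 CTL and 8.21 and 8.71 with pre-miR-375. It was lower by 1.17 and 1.14, 2.23-fold on average, and the groups did not overlap. In TT cells LIF read 4.12 (not well above background) and 5.43 with CTL and 5.52 and 5.67 with antagomiR-375, higher by 1.40 and by 0.24, so that most of the difference came from the pair with the dim control. The other probes of IL6 and LIF were well above background on no array and on 2 arrays, respectively. IL1B, the fever cytokine that is itself a strong trigger of NF-kB, was not well above background on any array and was not compared.

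CCL2, which draws monocytes through the receptor CCR2, went against IL8, IL6 and LIF. In Nthy-ori 3-1 cells it read 7.14 and 6.43 with CTL and 9.22 and 8.99 with pre-miR-375. It was higher by 2.08 and 2.55 in the pairs, 4.99-fold on average (log2 difference 2.32, SE 0.175), which was the largest change of the 9 genes compared in these cells. In TT cells it read 10.26 and 10.13 with CTL and 9.99 and 10.03 with antagomiR-375, lower by 0.27 and 0.10. The brakes of the pathway moved little. NFKBIA read 11.61 and 11.60 in Nthy-ori 3-1 CTL and 11.86 and 11.79 with pre-miR-375, and 12.58 and 12.65 in TT CTL against 12.56 and 12.71 with antagomiR-375, where the groups overlapped. TNFAIP3 read 5.70 and 5.60 in Nthy-ori 3-1 CTL and 5.95 and 6.01 with pre-miR-375, higher by 0.26 and 0.40. It was not well above background on any TT array.

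**Figure D2:**
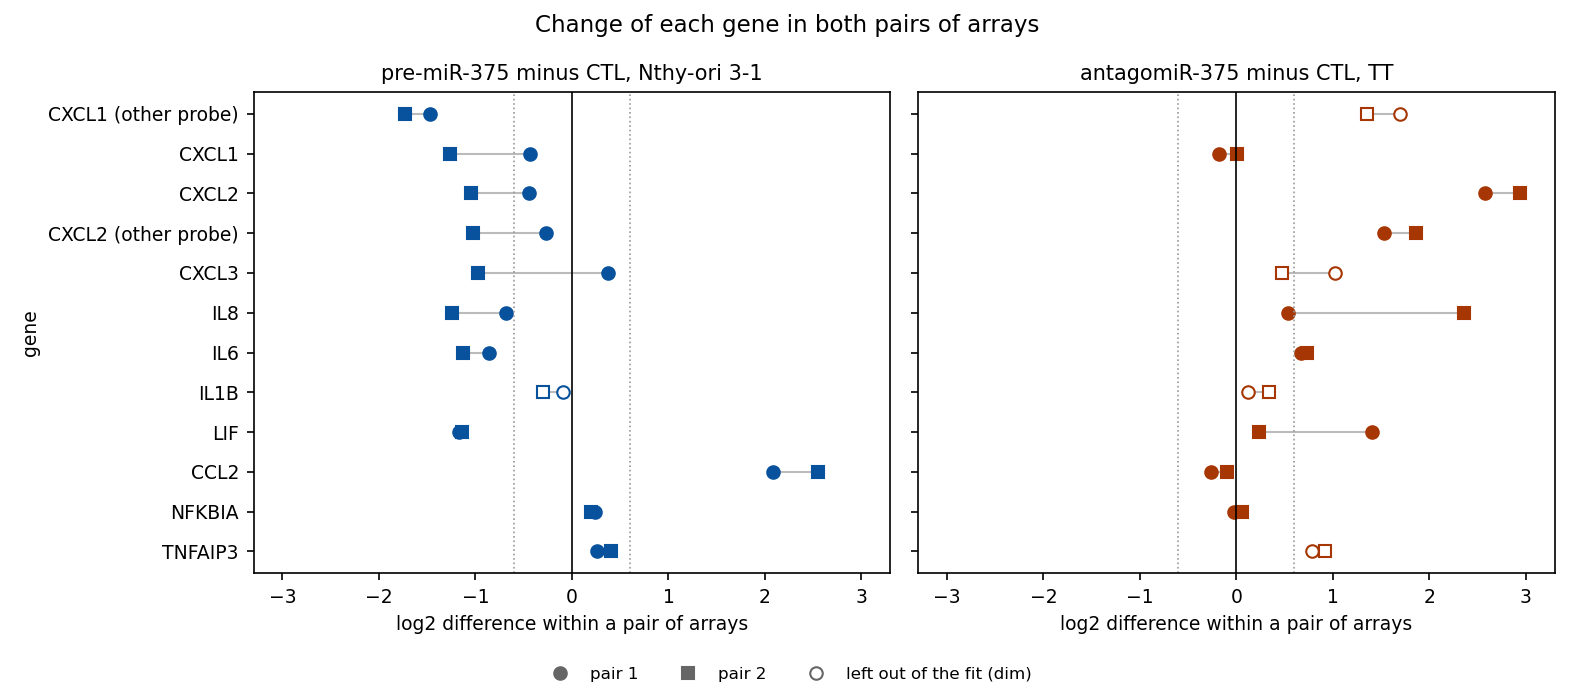
Log2 difference between the treated and the control array of each pair, for the probes of the 10 genes, in Nthy-ori 3-1 (left) and TT cells (right), with a circle for pair 1, a square for pair 2 and a grey line between them. Dotted lines mark 0.6 in either direction and open symbols are probes too dim to be fitted. IL8, IL6, LIF and the other CXCL1 probe lie left of -0.6 in both Nthy-ori 3-1 pairs and CCL2 right of 0.6, and CXCL2 and IL6 lie right of 0.6 in both TT pairs.

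Counted over the genes, 9 of the 10 passed the filter on dim probes in Nthy-ori 3-1 cells (well above background on at least 2 of the 4 arrays of the line) and 7 in TT cells. In Nthy-ori 3-1 cells 3 of the 9 (IL8, IL6 and LIF) were lower by more than 0.6 in both pairs, as were 6.19% of all 27719 probes that passed. The count takes 1 probe per gene and so leaves out the other CXCL1 probe, at -1.47 and -1.73 in the pairs. In the other direction 1 gene (CCL2) was higher by more than 0.6 in both pairs, as were 4.88%. The median log2 difference of the 9 genes was -0.75, beside 0.02 over all those probes. In TT cells 2 of the 7 (CXCL2 and IL6) were higher by more than 0.6 in both pairs, beside 2.33% of all 30299 probes, and 0 were lower, beside 1.5%. The median of the 7 was 0.70, beside -0.01 over all probes. Because the genes were chosen with these comparisons known, nothing is read from the counts. Across the whole array limma called 0 probes higher and 0 lower, or 0% each, at a Benjamini-Hochberg adjusted p of 0.05 in either line, with the smallest adjusted p at 0.0785 (Nthy-ori 3-1) and 0.341 (TT), and with 7413 and 4146 probes at an unadjusted p under 0.05. With the log2 values as deposited by the authors, which change the normalization and the background, the differences in Nthy-ori 3-1 cells were 1.89 for CCL2, -0.57 for IL8, -0.93 for IL6 and -1.05 for LIF, and -1.37 for the other CXCL1 probe.

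Values of other markers moved with the precursor too. Of the 7 C cell markers, 5 were well above background on each array of Nthy-ori 3-1 RNA after pre-miR-375. Of the 5 tested, 4 (CALCA, CHGA, SCG2 and SYP) were higher by more than 0.6 in both pairs, beside 4.88% of all probes. These 4 were not well above background on either control array and passed the filter only through the treated arrays. They therefore had to be higher, and nothing is read from the count. CALCA read 3.91 and 3.57 with CTL and 8.12 and 4.51 with pre-miR-375, and SCG2 2.10 and 4.62 against 6.72 and 8.42. Their summed linear signal was 118 to 131 on the control arrays and 534 to 541 with pre-miR-375, which amounts to at most 0.0252% and 0.104% of the TT control mean. CCL2, in the same units, went from 7.38 to 12.0% of its TT control mean to 43.4 to 50.9%. The summed fibroblast and endothelial markers read 11500 and 20310 on the control arrays and 27240 and 30020 with pre-miR-375, most of it COL1A1, with 4 of the 7 well above background on all arrays of either group and COL3A1 on none. All 7 leukocyte markers were well above background on both arrays with pre-miR-375, and 6 of them were on both control arrays, at summed signals of 1144 to 1231 and 949 to 1104. PTPRC, the defining one, was at 6.17 to 6.34 on these arrays, while CD14 differed by 0.97, CD68 by -0.96 and CSF1R by -0.71, each past 0.6 in both pairs. The follicular markers summed to 2168 to 2261 on the control arrays and to 1779 to 1850 with pre-miR-375. In TT cells the fibroblast and endothelial markers summed to 198 to 239 on the control arrays and to 259 to 329 with antagomiR-375, the leukocyte markers to 671 to 762 and to 583 to 587, and the follicular markers to 5445 to 5938 and to 5176 to 5461. The RNA integrity number was 8 on both TT control arrays and 9 on the other arrays, so that RNA integrity and treatment cannot be told apart in TT cells. The part of these markers in the results was not tested, and in RNA of whole cultures fewer cells of a type and less RNA per cell cannot be told apart.

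To show what surrounds the 10 genes, 120 further genes of the pathway were listed by role. In Nthy-ori 3-1 cells 89 of them passed the filter, 45 higher and 44 lower, where 52.7% of all probes were higher. Of the 89, 4 were higher and 9 lower by more than 0.6 in both pairs, beside 4.88% and 6.19% of all probes. Limma called 0 of the 89. With the deposited values limma called 6 of the 89 higher and 11 lower, where 5.7% of all probes were called higher and 6.48% lower. The 4 with the largest falls in both pairs were CSF2, ZFP36L2, BIRC3 and PLAU. CSF2, the growth factor GM-CSF, read 6.38 and 6.78 with CTL and 4.95 and 4.55 with pre-miR-375 (log2 difference -1.83, adjusted p = 0.0863 from limma), with 1 of the 2 treated arrays well above background. ZFP36L2, a protein that binds AU-rich elements and promotes mRNA decay, differed by -1.56 (adjusted p = 0.0785 from limma), BIRC3, an inhibitor of apoptosis, by -1.53 (adjusted p = 0.0809) and PLAU, the urokinase protease, by -1.48 (adjusted p = 0.0809). On the other side were the stromelysin MMP3 (1.57), the receptor of double-stranded RNA TLR3 (1.23), the LIF receptor LIFR (0.83, of which 1.46 and 0.19 in the pairs) and the IL-6 family cytokine IL11 (0.82), with adjusted p between 0.0865 and 0.274 from limma. IL11 read 11.32 and 11.06 with CTL and 12.09 and 11.92 with pre-miR-375, opposite to its relatives IL6 and LIF. The 5 NF-kB subunits differed by -0.39 to 0.40, with 2 higher and 3 lower.

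In TT cells 80 of the 120 genes passed the filter, 54 higher and 26 lower with antagomiR-375, where 48.5% of all probes were higher. By more than 0.6 in both pairs 0 were lower and 4 higher, beside 1.5% and 2.33% of all probes, and limma called 0. The 4 were TNF, IL32, CSF2 and ICAM1. TNF, the cytokine that gives the canonical trigger of the pathway, read 2.58 (not well above background) and 3.90 with CTL and 4.35 and 5.29 with antagomiR-375, a difference of 1.58. IL32, a pro-inflammatory cytokine, differed by 1.39 but unevenly (0.74 and 2.03). CSF2 read 5.98 and 5.90 with CTL and 7.26 and 7.03 with antagomiR-375 (1.20), and ICAM1, the leukocyte adhesion molecule of activated endothelium and epithelium, 5.59 and 5.77 against 6.91 and 6.81 (1.18). The adjusted p from limma was 0.341 for TNF, CSF2 and ICAM1 and 0.358 for IL32. The largest falls in both pairs were smaller, with CD83 at -0.48, CXCR7 at -0.44, CXCL13 at -0.43 and TAB3 at -0.40. All 5 NF-kB subunits were higher, by 0.08 to 0.58, with a median of 0.32. CSF2 was thus the gene among those named in both lines with a fall by over 1 with the precursor and a rise by over 1 with the inhibitor. PLAU differed by 0.52 and ZFP36L2 by 0.30 in TT cells, BIRC3 by -0.09, and ICAM1 by 0.15 and TNF by 0.19 in Nthy-ori 3-1 cells. No test of the difference between the lines was made.

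**Figure D3:**
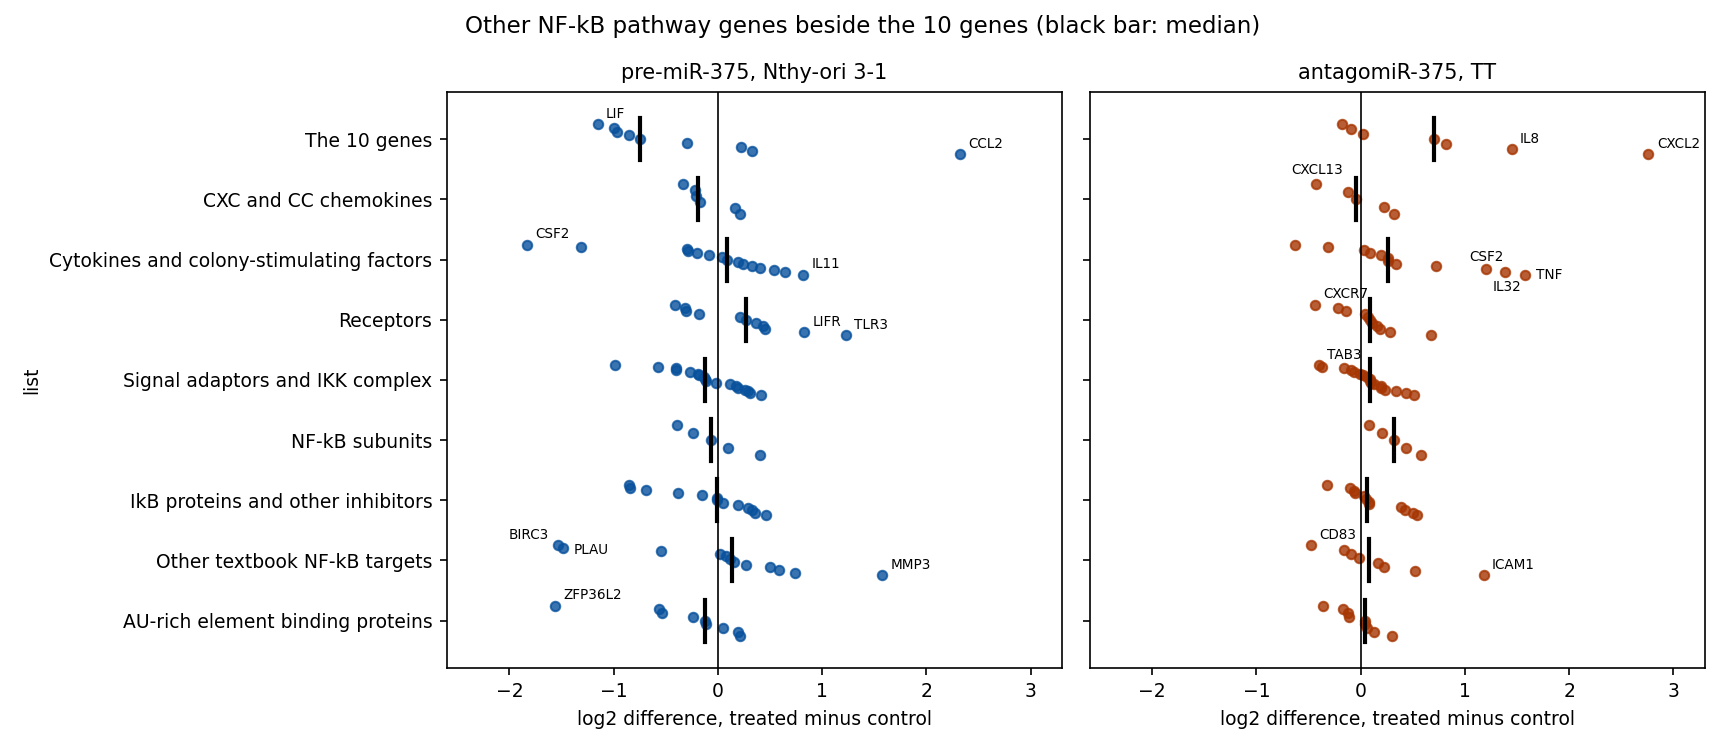
Log2 difference, treated minus control, of each gene that passed the filter (points), by list, with the median as a black bar, for pre-miR-375 in Nthy-ori 3-1 (left) and antagomiR-375 in TT cells (right). The 10 genes have medians of -0.75 and 0.70, and the 8 other lists have medians between -0.19 and 0.32.

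The genes whose pattern was most like that of CXCL2 were sought among the 22074 probes outside the lists that were well above background on all 8 arrays, by the distance between their 4 pair differences and those of CXCL2 (0 would be the same differences). The closest was ATF3, a stress-induced transcription factor, at a distance of 1.04. It was lower by 0.52 and 0.50 in the Nthy-ori 3-1 pairs and higher by 1.94 and 2.34 in the TT pairs. MCAM followed at 1.82, LMBR1 at 1.87, COL27A1 at 2.04 and TLK1 at 2.10. All 5 were lower in both Nthy-ori 3-1 pairs and higher in both TT pairs, as the measure selects, and the largest TT difference among the last 4 was 1.75, for MCAM.

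The control arrays of the 2 lines were then compared, which asks how far the lines differ in these genes before miR-375 is altered. Apart from CCL2 and NFKBIA, the genes that could be measured were lower in TT than in Nthy-ori 3-1 cells. Of the 9 genes tested, limma (adjusted p of at most 0.05, 31065 probes tested) called 7 lower and 2 higher, where 22.8% of all probes were called lower and 22.7% higher. CXCL3, TNFAIP3 and the other CXCL1 probe passed the filter only through the Nthy-ori 3-1 arrays and so had to differ, and neither the count nor their p is read as support. The TT arrays lay on other slides than the Nthy-ori 3-1 arrays, and their controls differed in the labelled concentration (20 nM against 5 nM) and RNA integrity number (8 against 9), with the reagent unnamed, so that slide, concentration, RNA integrity and line cannot be told apart. The control arrays are those of the comparisons above, and CXCL2 chose the group partly through them. Its difference between the lines is thus a description, and the calls of its probes are not read as support.

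CXCL2 was 7.74-fold lower in TT CTL than in Nthy-ori 3-1 CTL (log2 difference -2.95, SE 0.383), and its other probe differed by -2.87. CXCL1 was 3.84-fold lower (-1.94, adjusted p = 0.015 from limma), and by its other probe at least 61.1-fold lower (adjusted p = 0.000353 from limma). Such a bound uses, for each dim array, the weakest signal that was still well above background, and was at least 4.46-fold lower for CXCL3 (adjusted p = 0.0046) and at least 4.76-fold lower for TNFAIP3 (adjusted p = 0.00157). IL8 differed by -3.10 (adjusted p = 0.016 from limma), with 1 of 2 TT control arrays well above background. Among the genes read by a probe above background on at least 1 array of each group, the widest gaps were those of the gp130 cytokines. LIF was 28.7-fold lower (-4.84, SE 0.514, adjusted p = 0.00335 from limma), also with 1 of 2 TT control arrays well above background, and IL6 was 14.9-fold lower (-3.90, SE 0.309, adjusted p = 0.00154 from limma). In contrast CCL2 was 10.6-fold higher in TT CTL (3.41, SE 0.305, adjusted p = 0.00212 from limma) and NFKBIA 2.02-fold higher (1.01, SE 0.180, adjusted p = 0.014 from limma). For CXCL1 and NFKBIA the call was lost when either TT control array was left out (adjusted p = 0.0993 and 0.0623 for CXCL1, 0.109 and 0.120 for NFKBIA), as it was for the other CXCL2 probe (0.0676 and 0.0536), and for IL8 when replicate 1 of the Nthy-ori 3-1 controls was left out (0.0619) or dim probes were kept (0.0521). Without the first and without the second TT control array limma called 6821 and 6928 probes, against 14133.

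Of the 120 other pathway genes, 91 were tested between the lines, with 8 called higher and 36 called lower in TT CTL, beside the 22.7% and 22.8% of all probes. Of these calls 3 higher and 10 lower were of genes above background in a single line, which had to differ, and 5 higher and 26 lower were of the 78 genes seen in both. With the deposited values 7 were called higher and 55 lower, where 17% and 35.9% of all probes were. The median log2 difference of the 91 was -0.64, beside -0.03 over all probes. The largest called falls were IL11 (at least 221-fold), PTX3, a pattern recognition protein (at least 32.7-fold), IL15 (-6.05) and PLAU (-6.04), and the largest called rises were the chemokine receptor CXCR4 (at least 21.1-fold), the IL-1 receptor IL1R1 (4.16), the B cell chemokine CXCL13 (at least 2.10-fold) and LIFR (2.83), with adjusted p from 0.000177 to 0.0329 from limma. IL11, PTX3, CXCR4 and CXCL13 are among those above background in a single line. LIF and its receptor thus differed in opposite directions, LIF lower and LIFR higher in TT cells. By list, 7 of 15 cytokines and colony-stimulating factors, 6 of 11 other textbook NF-kB targets, 6 of 13 inhibitors and 6 of 18 signal adaptors were called lower, against 0, 1, 0 and 1 called higher. The receptors had 6 lower and 4 higher of 13. These counts by list include genes above background in a single line, which had to differ, so no pattern among the lists is read from them. Among the 5 NF-kB subunits 1 was called, as lower. The split between directions depended on the scaling, as 7053 probes were called higher and 7080 lower here, and 5285 higher and 11151 lower with the deposited values, whose median over all probes was -0.32. With the deposited values limma called 7 of the 9 genes lower and 2 higher, each in the direction given above. Each lay farther from 0 than that shift, from -3.69 for IL6 to 2.53 for CCL2. The 7 include CXCL3 and TNFAIP3, which had to differ, and CXCL2, which chose the group. The deposited values appear to be normalized within each line and so are not on 1 scale, and this count is not read as support.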

How the data were processed

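RNA was labelled in 1 colour and hybridised to 8 arrays. The authors deposited Feature Extraction 10.10.1.1 output, whose processed intensity of each spot is background subtracted, and a table of normalized log2 values (median signal, quantile normalized within each line, as judged from its values). From the processed intensity, log2 was taken, control spots and 341 to 428 outlier spots per array were left out, repeat spots were averaged per probe, and all 8 arrays went through 1 quantile normalization in R 4.3.3 with limma 3.58.1. Probes well above background on at least 2 of the 4 arrays compared were fitted (lmFit, eBayes), within a line blocked on replicate number and between lines without a block, and p-values were adjusted by Benjamini-Hochberg over all of them. Replicate numbers mark a shared slide within a line. The replicate differences of control and treated arrays correlated with r of 0.785 (24191 probes) in Nthy-ori 3-1 and 0.33 (27241 probes) in TT cells. Two-sided exact permutation with 2 arrays against 2 cannot go below 0.333.

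The genes and lists were chosen with earlier results of these data known. Of several probes, that with the highest mean over the 8 arrays stood for a gene. Pathway genes were named by call, or, where fewer than 4 were called, as up to 4 per direction with the largest change in the same direction in both pairs. Between lines the 4 largest called changes per direction were named, and the 5 genes most like CXCL2 by Euclidean distance. The steps were tested on simulated data. Alternatives were normexp (offset 50), the deposited values, the 75th percentile, quantile normalization within each line, no filter, outlier spots kept, other block structures and each replicate left out. Probe positions are hg19 per the file headers, and no annotation of that build was used here.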

Additional observations from a re-analysis of the deposited data

How the results depend on the processing

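Of the alternatives, those that changed the background or the fit moved the number of probes limma called between the pre-miR-375 arrays and their controls from 0 to 4220 with normexp, 3376 with the deposited values and 2319 with both lines fitted together. With antagomiR-375 in TT cells it went from 0 to 109 with normexp. The count was 0 under the other alternatives in either line, also with no replicate block, where 0 were called in both. Between the lines, the count of 14133 was 13760 with a replicate block across lines and 6821 to 15401 with 1 array left out, lowest without a TT control array. Of the 10 genes, 2 were lower by more than 0.6 in both Nthy-ori 3-1 pairs under either normexp or the deposited values, against 3. In both TT pairs 1 was higher by that much under either, against 2. With 1 Nthy-ori 3-1 pair left out, the count covers the remaining pair only, which is a looser criterion. It was 6 genes lower by more than 0.6 without replicate 1 and 3 without replicate 2, and is not comparable with the count in both pairs. CXCL2 in TT cells was 1.82 higher with normexp and 1.92 with the deposited values, against 2.76. Directions turned for CXCL3 in Nthy-ori 3-1 cells, which ran from -0.97 to 0.38 with 1 pair left out, and in TT cells for CXCL1 (-0.18 to 0.0018) and NFKBIA (-0.021 to 0.063), NFKBIA also at the 75th percentile (-0.0088). The cause was not tested. The number of arrays and signal near background (CXCL3, IL8, LIF and TNFAIP3 in TT cells) limit these comparisons, and no other value given for the 10 genes changed direction under these alternatives.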
